A study of Sus scrofa with 40 samples.

Results

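Hyaluronan is a long, unbranched sugar chain of the extracellular matrix, spun out at the cell surface by the hyaluronan synthases HAS1, HAS2 and HAS3. Hyaluronidases cut it, HYAL2 at the cell surface and HYAL1 in lysosomes, CD44 is its main cell-surface receptor, and the proteins of TNFAIP6 and VCAN bind it in the matrix. In the healthy kidney hyaluronan is abundant in the interstitium of the papilla and sparse in the cortex, and it accumulates in the cortex after ischemic injury.

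These 8 genes were followed in pig kidney on 40 single-color Agilent arrays. Rows were chosen by name: a non-control spot belonged to the set where its gene name, or a symbol in brackets in its description, was one of the 8. This gave 12 spots of 43803, for 9 of 35955 identifiers and 7 genes. The array names HAS2 differently, as SHAS2 (NM_214053), and with that row the set held 13 spots, 10 identifiers and 8 genes. The genes were chosen because HAS1 had been seen to be higher in cold-stored cortex of these same arrays, so every comparison of cold-stored cortex is given below as a description, with no p-value, and a call there says only which values passed the thresholds.

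Kidneys came from 3 months old Large White pigs. Cortex (C) and corticomedullary junction (CMJ) were sampled from control kidneys (Ctl), removed and frozen at once, from kidneys clamped for 60 min at 37 °C (WI), and from kidneys clamped in the same way, flushed with University of Wisconsin solution and kept at 4 °C, which were sampled after 6 h (WI+CS6h) and again after 24 h (WI+CS24h). Each of the 8 groups held 5 arrays, from 15 kidneys in all, since the 5 cold-stored kidneys served both times, and all of those had first been through WI. Both tissues came from the same kidneys, and all pigs were brothers of 1 breed. No kidney was reperfused and none was stored cold without WI. In bulk tissue, fewer cells of a type and less RNA per cell cannot be told apart.

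Signals are given as background-subtracted log2 intensity after quantile normalization, and a difference was called at an adjusted p under 0.05 with an absolute log2 difference of at least 0.5. Levels of different genes cannot be set against each other on these arrays. The share of spots well above background ranged from 57.01% to 69.91% over the 40 arrays. In control kidneys the summed signal of 4 genes of thick limb and collecting duct was 12.34 to 12.98 in cortex and 12.59 to 13.59 in CMJ on the log2 scale. That of 4 genes of proximal tubule was 15.47 to 15.81 and 15.16 to 15.42. The medullary sum thus tended higher in CMJ with overlap, and the proximal tubule sum was lower without overlap. Among the 4 medullary genes SCNN1G went the other way, at 10.43 ± 0.29 (SD, n = 5) in Ctl-C and 10.07 ± 0.11 in Ctl-CMJ. Of the WI-CMJ arrays 3 stood apart by the EF601160 reading of the adipocyte gene ADIPOQ, which was 6.23, 7.05 and 7.53 on replicates 1, 3 and 5, where it was 0.50 and 0.48 on replicates 2 and 4 and not well above background on any array of another group. Several results that rest on WI-CMJ are therefore also given without these 3 arrays, with the remaining 2 assumed to vary like the other groups. Whether a call changed is given for all members at the end.

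The probes behind the results below were as follows, printed 5′ to 3′ because each call rests on the few bases that the array reads. HAS1 rested on 1 probe of 60 bases, of which the first 30 are shown, with the pentamer ATTTA in capitals. HYAL2 had 2 probes, starting at bases 190 and 1046 of its transcript per the array files, which gave 2 readings of the same RNA. CD44 had 1 probe for each of 2 transcripts, starting at base 2342 of ENSSSCT00000014523 and at base 616 of ENSSSCT00000035116 (first 30 bases shown).
HAS1 NM_001136212: ccccgatttctccctgttcttATTTAatct
HYAL2 NM_214440, from base 190: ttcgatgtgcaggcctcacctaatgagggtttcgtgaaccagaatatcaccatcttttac
HYAL2 NM_214440, from base 1046: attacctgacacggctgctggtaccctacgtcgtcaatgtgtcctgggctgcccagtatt
CD44 ENSSSCT00000014523: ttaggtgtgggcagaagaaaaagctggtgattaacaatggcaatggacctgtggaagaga
CD44 ENSSSCT00000035116: ctactccaacatctagcagtaaggactgta
ATTTA is the core of AU-rich elements, sequences known from unstable mRNAs. It stood as printed in 9.33% of the 43603 different probes and on either strand in 19.3%, and of the 13 probes of these genes only that of HAS1 held it, on either strand. A match is a description of the letters and not a site.

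HAS1, a synthase with low expression in most adult tissues, was near the floor of the arrays in control kidneys and higher after warm ischemia in cortex. In Ctl-C its log2 signal was 1.67, 0.69, 1.40, 0.47 and 1.73, and no array was well above background. In WI-C it was 3.74, 3.09, 2.46, 3.03 and 3.73, and all 5 arrays were well above background. Every WI-C array lay above every Ctl-C array, and 1.64% of all identifiers had no overlap between these groups.

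The difference between WI-C and Ctl-C was 2.02 ± 0.33 (SE, n = 5 per group), with a limma adjusted p of 0.0118. As no control array was well above background, no exact fold is given. Set against the dimmest signal of any spot called well above background on each array, HAS1 was 2.06-fold higher. This is not a lower bound for HAS1, whose own spot was not well above background at 3.11 on WI+CS6h-C replicate 5. Over all identifiers 0.0946% were called in either direction, and 1 of the 10 identifiers of the hyaluronan genes. The control arrays here are the ones against which cold-stored cortex was set when the genes were chosen, so the comparison is not independent of that choice. No identifier of the cell type lists was called between these groups, and the leukocyte sum was 8.56 to 9.22 in Ctl-C and 8.61 to 9.48 in WI-C. The endothelium sum was 11.68 to 11.81 in Ctl-C and 11.45 to 11.65 in WI-C, lower on every WI-C array, and the sums of the other lists overlapped. The part of cell makeup in the HAS1 result was not tested.

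In raw scanner units the change was small. The mean pixel intensity of the HAS1 spot was 26.8 to 32.6 in Ctl-C and 32 to 43.5 in WI-C, beside a local background of 23 to 31 and 21 to 31.5. After subtraction 1.23 to 3.52 units were left in Ctl-C and 5.65 to 13.3 in WI-C. The authors' log2 matrix, which is made without background subtraction, held 4.78 to 4.90 in Ctl-C and 4.96 to 5.30 in WI-C, a difference of 0.30 (adjusted p = 0.567, not called) with the arrays again apart. A normexp correction gave 0.10 (adjusted p = 0.981). The arrays of WI-C were also above those of Ctl-C on both scan days, by 1.54 (3 against 2 arrays) and 2.45 (2 against 3), and by 3.04 on the single slide that held both, but with slide as a block the adjusted p was 0.597.

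**Figure D1:**
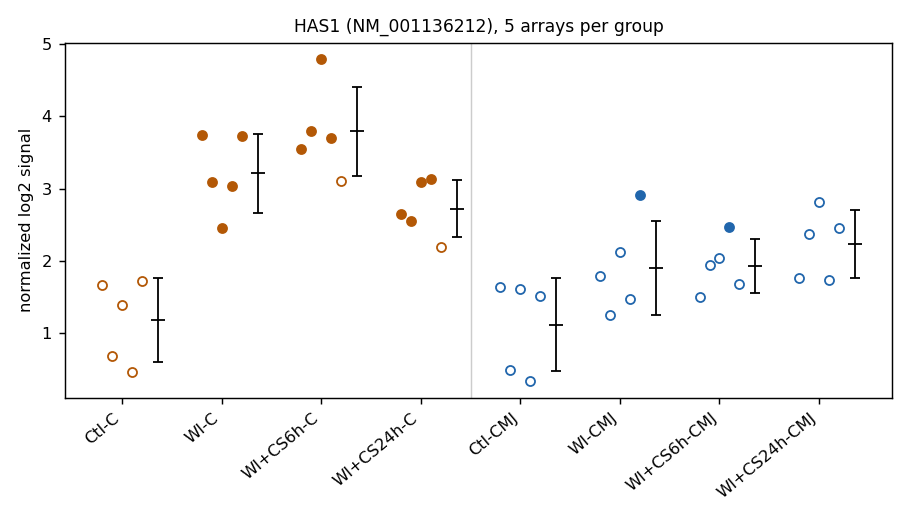
HAS1 log2 signal on each of the 40 arrays by group (cortex in brown, CMJ in blue, replicates 1 to 5 from left to right in a group). Filled points are well above background and open points are not, and bars give the group mean ± SD. All Ctl points are open, all 5 WI-C points are filled and lie above those of Ctl-C, and no CMJ group has more than 1 filled point.

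In cold-stored cortex, where the rule chose the genes, HAS1 was 3.55, 3.80, 4.80, 3.71 and 3.11 at 6 h and 2.65, 2.56, 3.09, 3.14 and 2.19 at 24 h. On 4 of 5 arrays of each group it was well above background, and replicate 5 was the exception in both. Against Ctl-C the differences were 2.60 ± 0.33 and 1.53 ± 0.33, with no fold given as replicate 5 and the controls were not well above background, and no cold-stored array overlapped with the controls, as was so for 5.19% and 5.71% of all identifiers. The adipocyte sum was also higher on every cold-stored array, at 9.31 to 9.44 in Ctl-C, 9.54 to 9.93 at 6 h and 9.54 to 9.94 at 24 h, while no adipocyte identifier was called and the sums of the other lists overlapped. Its genes did not move alike: in Ctl-C, at 6 h and at 24 h FABP4 was 7.20, 7.72 and 7.66 but LEP 4.28, 4.43 and 4.01. CIDEC (ENSSSCT00000012648) was 8.93, 9.22 and 9.19. The EF601160 reading of ADIPOQ was not well above background in these groups, and its NM_214370 reading was 1.77, 2.30 and 2.31. SCNN1G, a collecting duct gene, passed the thresholds at 6 h with a difference of 0.65, as the only 1 of 5 identifiers of its list. AQP3, another collecting duct gene, was 8.30 in Ctl-C and 8.13 at 6 h, and the ENSSSCT00000024769 reading of AQP2 was 11.82 and 11.84. The median difference of the 5 was 0.23. The part of these cells was not tested.

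The arrays of both storage times overlapped with those of WI-C, while 3.24% and 3.36% of all identifiers did not. Relative to WI-C the differences were 0.58 and -0.49, both ± 0.33. Between 24 h and 6 h of storage HAS1 differed by -1.07 ± 0.33 in a fit that did not pair the kidneys. By replicate number HAS1 was lower at 24 h each time. Replicate 5 was not well above background, and deviations did not correlate by number in every pair of cold-stored cortex arrays. No identifier on the array was called between the storage times in cortex (0% of 35939 tested). The HAS1 differences in cold-stored cortex depended on background subtraction as that of WI-C did: in the authors' matrix they were 0.49 and 0.16 against Ctl-C, and with normexp 0.14 and -0.04.

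In CMJ, whose arrays the rule did not use, HAS1 stayed close to the floor. It was 1.64, 0.50, 1.61, 0.34 and 1.52 in Ctl-CMJ and 1.79, 1.26, 2.12, 1.47 and 2.91 in WI-CMJ. Only WI-CMJ replicate 5 was well above background, and the groups overlapped (3.88% of all identifiers did not).

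After cold storage in CMJ HAS1 was 1.50, 1.95, 2.04, 2.48 and 1.69 at 6 h and 1.76, 2.38, 2.82, 1.74 and 2.46 at 24 h, with 1 array and no array well above background. The limma differences from Ctl-CMJ were 0.79 ± 0.33 (adjusted p = 0.321) for WI-CMJ, 0.81 ± 0.33 (adjusted p = 0.216) for WI+CS6h-CMJ and 1.11 ± 0.33 (adjusted p = 0.0619) for WI+CS24h-CMJ, none of them called. WI+CS24h-CMJ did not overlap with Ctl-CMJ, as was so for 5.44% of all identifiers, but neither group had an array well above background. With at most 1 array above background in a CMJ group, no order or fold is read from these values. On the first scan day the WI-CMJ difference was -0.06 and on the second 1.69, and without the 3 arrays set apart by ADIPOQ it was 0.24.

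Ordered by mean, HAS1 ran from WI+CS6h-C (3.79) over WI-C (3.21) to WI+CS24h-C (2.72), and the arrays of neighbours in this order overlapped. Ctl-C and the CMJ groups, each with at most 1 array well above background, were not ordered. Between CMJ and cortex of control kidneys limma called none of the 10 identifiers, beside 0.312% of all identifiers, with none at an unadjusted p under 0.05. After WI none of the 10 was called between the tissues either, beside 0.671% of all identifiers (HAS1 limma adjusted p = 0.0575). With the replicate number as a block, which pairs the WI samples of the 2 tissues, HAS1 was called as lower in CMJ (adjusted p = 0.0448). The main fit without the 3 WI-CMJ arrays set apart by ADIPOQ did not call it (limma adjusted p = 0.148). The interaction of WI with tissue was called for none of the 10 in the main fit or any alternative, beside 0 of 35934 identifiers in the main fit. At 6 h of storage 1 of the 10, HAS1, passed the thresholds as lower in CMJ, beside 0.0807% of all identifiers, which is a description since cold-stored cortex enters it. After WI and at 6 h 1 of 5 CMJ arrays was well above background for HAS1, so no size is read from these comparisons. At 24 h, also as a description, none of the 10 and 0 of 35934 identifiers passed the thresholds.

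HAS2, the main hyaluronan synthase of many adult and embryonic tissues, and HAS3 were measured on 40 and 39 of the 40 arrays. HAS2 means ran from 6.67 in WI+CS24h-CMJ to 7.13 in WI-CMJ, and its largest tested difference was that between these groups, -0.46 ± 0.17 (limma adjusted p = 0.154). Without the 3 WI-CMJ arrays set apart by ADIPOQ this difference was -0.27 ± 0.18 (limma adjusted p = 0.663). HAS2 was called in no comparison. In 3 of the 4 cold-stored groups its lowest 2 arrays were replicates 1 and 2, which recur below for CD44.

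HAS3 was 3.64, 3.52, 3.46, 3.64 and 3.79 in Ctl-CMJ and 3.93, 4.45, 4.07, 3.81 and 3.85 in WI+CS6h-CMJ. All arrays of the latter lay above those of the former, as was so for 5.94% of identifiers in this comparison. The difference was 0.41 ± 0.15 and was not called (limma adjusted p = 0.163). In cortex the HAS3 difference of WI+CS6h-C was 0.51 ± 0.16 from Ctl-C and 0.57 ± 0.16 from WI-C, and neither was called. Without WI+CS6h-C replicate 5, which was not well above background for HAS3, both were called, at 0.64 and 0.70.

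HYAL2, a cell-surface enzyme that cuts long hyaluronan into fragments, was highest in CMJ after warm ischemia and lower after cold storage. It was 7.99, 8.24, 8.29, 8.47 and 8.58 in WI-CMJ. In WI+CS6h-CMJ it was 7.58, 7.65, 7.78, 7.81 and 7.55, and in WI+CS24h-CMJ 7.48, 7.64, 7.69, 7.78 and 7.56. Every array of both cold-stored groups lay below every WI-CMJ array, and 5.89% and 4.56% of all identifiers had no overlap in these comparisons.

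Relative to WI-CMJ, HYAL2 fell by 0.64 ± 0.12 on the log2 scale at 6 h (1.56-fold, limma adjusted p = 0.00395) and by 0.69 ± 0.12 at 24 h (1.61-fold, limma adjusted p = 0.00232). Both comparisons share the WI-CMJ arrays, and the cold-stored kidneys are the same at both times. Of the 10 identifiers, HYAL2 was the 1 called in each, beside 2.78% and 2.85% of all identifiers. Its 2 probes, which lie in different stretches of the transcript, were both called at both times, at -0.65 and -0.62 at 6 h and -0.73 and -0.64 at 24 h.

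HYAL2 was 7.93, 7.72, 7.76, 7.55 and 8.14 in Ctl-CMJ, between these levels. WI-CMJ was 0.49 ± 0.12 above it (limma adjusted p = 0.0508), just short of both thresholds, and the arrays overlapped. One of its 2 probes was called there on its own (0.55, adjusted p = 0.0397) and the other was not (0.44, adjusted p = 0.0601). Leaving out Ctl-CMJ replicate 5 or WI-CMJ replicate 1 brought the HYAL2 difference to 0.57 either way, and it was then called. Cold-stored CMJ differed from Ctl-CMJ by -0.15 ± 0.12 at 6 h (limma adjusted p = 0.618) and -0.19 ± 0.12 at 24 h (adjusted p = 0.42).

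**Figure D2:**
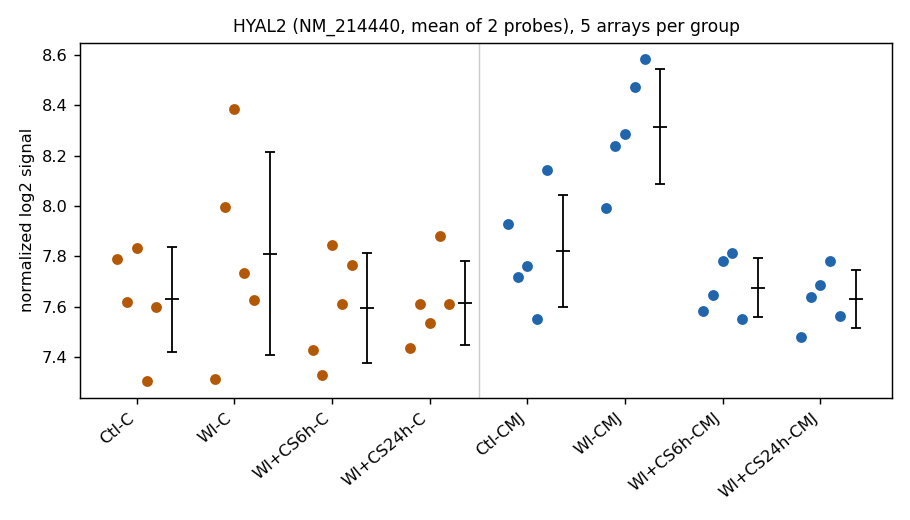
HYAL2 log2 signal, the mean of 2 probes, on each of the 40 arrays by group (cortex in brown, CMJ in blue, replicates 1 to 5 from left to right in a group), with the group mean ± SD beside. All points are filled, as HYAL2 was well above background on every array. The 5 WI-CMJ arrays lie between 7.99 and 8.58, above all arrays of cold-stored CMJ.

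The fall was seen within scan days (-0.63 and -0.71 at 6 h, -0.60 and -0.81 at 24 h) and within slides. It was negative on each of the 2 slides that held both WI-CMJ and WI+CS6h-CMJ (-0.47 and -0.44) and on each of the 4 with WI-CMJ and WI+CS24h-CMJ (-1.11 to -0.51). With slide as a block the 6 h difference was -0.65, with an adjusted p of 0.143, and that at 24 h stayed called. After normexp correction the differences were -0.39 and -0.42 (adjusted p = 0.00467 and 0.00262), under the fold threshold. In the same comparisons AQP3, a water channel of collecting duct, fell by 0.88 and 0.88 and SCNN1G, a collecting duct sodium channel subunit, rose by 0.79 and 0.97, while no leukocyte identifier of 6 was called and the leukocyte sum was 8.90 to 9.54 in WI-CMJ, 8.28 to 8.86 at 6 h and 8.16 to 8.97 at 24 h. The part of these cells in the HYAL2 result was not tested.

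None of the 8 adipocyte identifiers was called in these comparisons. Their median difference of WI-CMJ from control was 0.65 and those of cold-stored CMJ from WI-CMJ were -0.46 at 6 h and -0.51 at 24 h, but LEP, the hormone leptin, went against these medians, with differences of -0.14, 0.23 and 0.07. The ENSSSCT00000012648 reading of CIDEC, at 8.89 in WI-CMJ, 9.06 at 6 h and 8.87 at 24 h, also went against the median at 6 h. The NM_001112689 reading of CIDEC was 6.24, 6.12 and 5.96. The largest differences were those of ADIPOQ, with EF601160 at 4.36 ± 3.56 (SD, n = 5) in WI-CMJ, 0.59 ± 0.18 in Ctl-CMJ and 0.51 ± 0.14 and 0.61 ± 0.11 after storage. The summed signal of 5 adipocyte genes was 8.94 to 9.66 in Ctl-CMJ, 9.21 to 9.98 in WI-CMJ, 9.40 to 9.66 at 6 h and 9.10 to 9.68 at 24 h. On the 2 WI-CMJ arrays where the EF601160 and JX092267 readings of ADIPOQ were not well above background HYAL2 was 8.24 and 8.47. The NM_214370 reading was well above background on all 5 and stood at 1.90 and 2.21 on these 2 and at 3.31 to 4.49 on the other 3. Without those 3 arrays the HYAL2 differences from WI-CMJ were -0.68 ± 0.14 at 6 h (limma adjusted p = 0.0347) and -0.73 ± 0.14 at 24 h (adjusted p = 0.0255), both still called. The HYAL2 difference of WI-CMJ from Ctl-CMJ was then 0.53 ± 0.14 (adjusted p = 0.194).

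In cortex HYAL2 was flatter. Its WI-C mean was 7.81 ± 0.40 (SD, n = 5) and those of Ctl-C, WI+CS6h-C and WI+CS24h-C were 7.63, 7.59 and 7.61. The WI-C difference was 0.18 ± 0.17 (limma adjusted p = 1). After WI, HYAL2 was 0.50 ± 0.14 higher in CMJ than in cortex without being called (limma adjusted p = 0.112), and the interaction of WI with tissue, 0.31 ± 0.20, was not called either (adjusted p = 1). Without the 3 WI-CMJ arrays set apart by ADIPOQ these were 0.54 ± 0.19 (limma adjusted p = 0.601) and 0.35 ± 0.24, also not called.

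HYAL1, the lysosomal hyaluronidase, was called in no comparison. Its WI-CMJ arrays were 3.97 to 4.15 and those of WI+CS6h-CMJ 3.94 to 4.25, within the spread of 3.18 to 4.30 in Ctl-CMJ. The CMJ differences from Ctl-CMJ were 0.30 ± 0.15 (limma adjusted p = 0.439), 0.37 ± 0.15 (0.211) and 0.31 ± 0.15 (0.293) for WI, WI+CS6h and WI+CS24h. Without Ctl-CMJ replicate 3, the highest control, the 6 h difference was 0.50 and was called (adjusted p = 0.0368). In cortex the HYAL1 differences from Ctl-C were 0.30, 0.42 and 0.43, each ± 0.19.

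HYAL3, a neighbour of both genes in a cluster on chromosome 13 in the RefSeq order of the pig genome, is named here after its values were seen. In CMJ its log2 difference from WI was -0.42 ± 0.13 at 6 h (limma adjusted p = 0.0722) and -0.49 ± 0.13 at 24 h (adjusted p = 0.0353). Both had the sign of HYAL2 and neither passed both thresholds. HYAL3 arrays of WI-CMJ lay above those of cold-stored CMJ at both times, in comparisons where 5.89% and 4.56% of all identifiers did not overlap.

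CD44, the receptor, was measured well above background on all 40 arrays by both of its probes. Neither was called in any comparison, but both spread widely among cold-stored kidneys. In CMJ the reading of ENSSSCT00000035116 was 6.44, 6.27, 6.11, 6.34 and 6.43 in Ctl-CMJ, 4.95, 4.44, 5.69, 6.34 and 6.61 in WI+CS6h-CMJ and 4.51, 4.38, 5.40, 6.25 and 6.51 in WI+CS24h-CMJ. In cortex the Ctl-C values were 6.72, 6.63, 6.56, 6.32 and 5.82, those at 6 h of storage 4.23, 4.38, 5.44, 6.61 and 5.37 and those at 24 h 3.96, 4.49, 6.05, 5.54 and 6.86. Replicates 1 and 2 were the lowest 2 of the 5 in each of the 4 cold-stored groups, and at least 1 array in each cold-stored group was at control level.

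The SD of this CD44 reading was 0.91 to 1.17 in the 4 cold-stored groups and 0.13 to 0.36 in the other 4. An SD higher in every cold-stored group than in every other group was not particular to CD44: it was found for 11 of the 35 identifiers of the pathway lists and for 12.8% of all identifiers. SPP1 (osteopontin, a secreted ligand of CD44), named after its values were seen, had an SD of 1.62 to 1.69 after storage and 0.18 to 0.28 otherwise. The mean difference of CD44 from Ctl-CMJ was -0.72 ± 0.42 at 6 h (limma adjusted p = 0.446) and -0.91 ± 0.42 at 24 h (adjusted p = 0.258), and from Ctl-C -1.20 and -1.03, each ± 0.48. Without WI+CS6h-C replicate 4, the highest of its group, the 6 h difference in cortex was -1.55 and was called. WI differed from control by -0.09 ± 0.48 in cortex and by less than 0.01 ± 0.42 in CMJ.

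The other CD44 reading, ENSSSCT00000014523, had flat group means of 6.09 to 6.49, yet replicates 1 and 2 were again the lowest 2 in all 4 cold-stored groups, between 5.12 and 5.92, where the other 3 replicates were between 6.37 and 7.24. Over the 20 cold-stored arrays, which come from 5 kidneys, the 2 readings correlated at r = 0.727, and over all 40 at r = 0.536. Another row, described as similar to CD44 and outside the rule (TC546804), stayed between 6.28 and 7.03 on all 40 arrays, and replicates 1 and 2 were not its lowest 2 in any cold-stored group. Of the cell type sums, that of adipocytes had replicates 1 and 2 as the lowest 2 in 1 of the 4 cold-stored groups. In the opposite direction, they were the highest 2 in 3 of 4 groups for fibroblast genes (11.56 and 11.96 in WI+CS6h-C, against 10.50 to 11.09 in the other 3 replicates). That fibroblast sum holds only 2 genes, DCN and LUM, whose SD in WI+CS6h-C was 0.62 (NM_213920) and 0.13. Replicates 1 and 2 were also the highest 2 in 3 of 4 groups for proximal tubule genes, and in 1 each for thick limb and collecting duct and for leukocytes. The part of these cells in the CD44 spread was not tested.

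**Figure D3:**
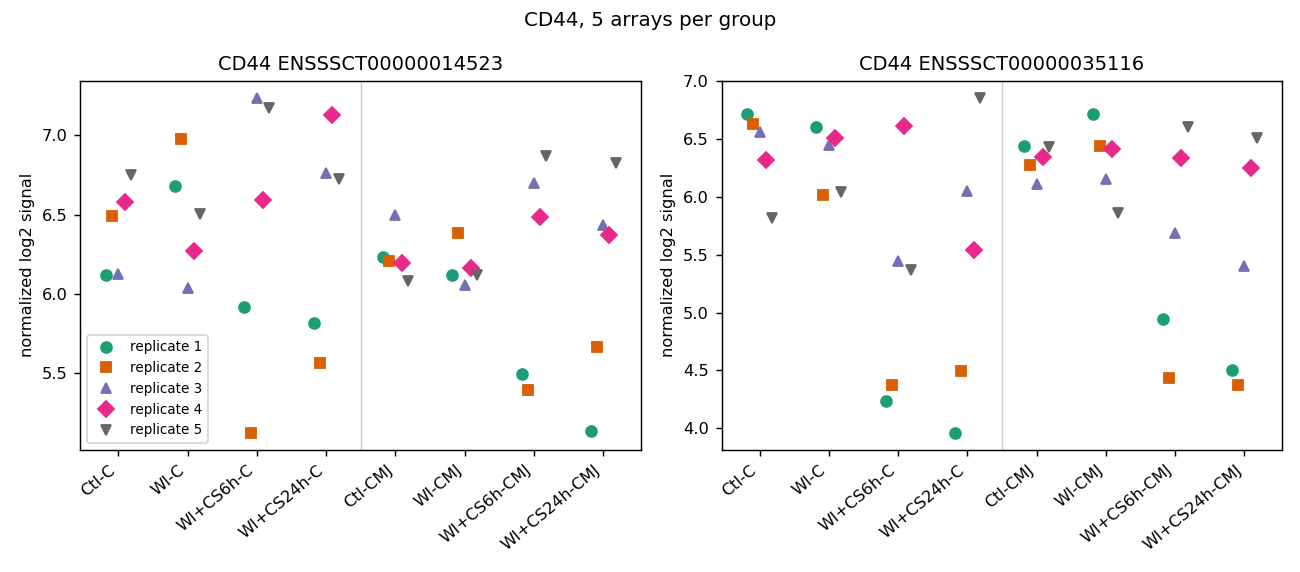
Log2 signal of the 2 CD44 transcripts on each of the 40 arrays by group, 1 symbol per replicate number. In the 4 cold-stored groups replicates 1 and 2 are the lowest 2 for both transcripts, while control and WI arrays lie close together.

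TNFAIP6, whose product moves the heavy chains of inter-alpha-trypsin inhibitor onto hyaluronan, was not well above background on any of the 40 arrays by any of its 3 probes. Its differences are therefore not read. VCAN, the large proteoglycan versican, was well above background on 36 arrays and was called in no comparison, with differences from control between -0.28 and 0.08 over both tissues. VCAN was 3.40, 2.86, 3.55, 3.79 and 3.27 in WI-C and 4.20, 4.19, 4.14, 3.80 and 4.64 in WI-CMJ. All CMJ arrays lay above those of cortex by a narrow margin, as 3.16% of all identifiers did not overlap here, and the difference of 0.82 ± 0.27 was not called (limma adjusted p = 0.212). Without the 3 WI-CMJ arrays set apart by ADIPOQ it was 0.62.

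**Figure D4:**
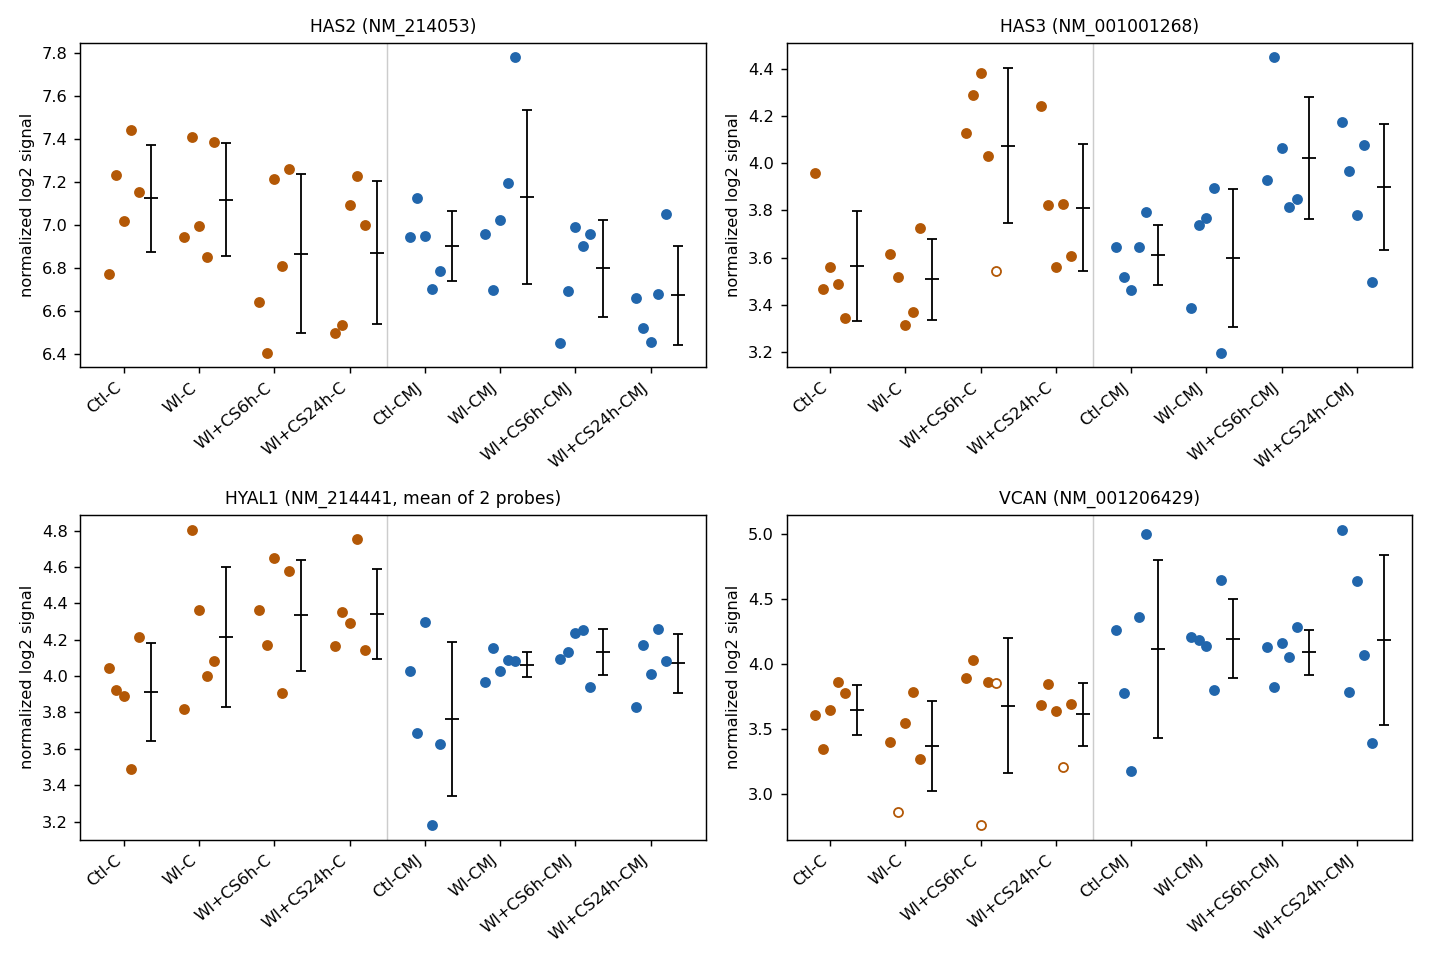
Log2 signal of HAS2, HAS3, HYAL1 and VCAN on each of the 40 arrays by group (cortex in brown, CMJ in blue, replicates 1 to 5 from left to right in a group), filled where well above background and open where not, with group means ± SD. The groups overlap in most panels, and HAS3 shows WI+CS6h-CMJ above Ctl-CMJ without overlap.

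Counted over the 10 identifiers, only HAS1 passed the thresholds in cold-stored cortex against control, as the choice of genes had fixed, where 4.02% and 2.5% of all identifiers did at 6 h and 24 h. Nothing is read from these 2 counts. Against WI-C none passed in cold-stored cortex, where 1.93% and 1.2% of all identifiers did. Against Ctl-CMJ none was called by limma in WI-CMJ, WI+CS6h-CMJ or WI+CS24h-CMJ, beside 0.687%, 3.19% and 3.65% of all identifiers, and 2, 3 and 2 had an unadjusted p under 0.05, as did 12.3%, 16% and 17.7% of all identifiers. Between the storage times none was called in either tissue, where 0% of all identifiers were in cortex and 0.00278% in CMJ, and by limma none had an unadjusted p under 0.05 in CMJ. These fits did not pair the kidneys that served both times. With kidney as a block, by replicate number, 0 of 35939 identifiers were called in cortex and 5 of 35938 in CMJ. None of the 10 was called in any alternative.

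Without the 2 identifiers of TNFAIP6, which were not well above background on any array, the median difference of the other 8 was 0.04 in WI-C versus Ctl-C, beside 0.01 over all identifiers. With HAS1 also left out, as its controls were at the floor, the median of the other 7 was -0.01. In CMJ, where HAS1 was near the floor and is left out too, the median of the other 7 was 0.08 in WI-CMJ versus Ctl-CMJ, beside -0.01. Relative to WI-CMJ it was -0.10 at 6 h and -0.08 at 24 h, beside 0.01 and 0.02.

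**Figure D5:**
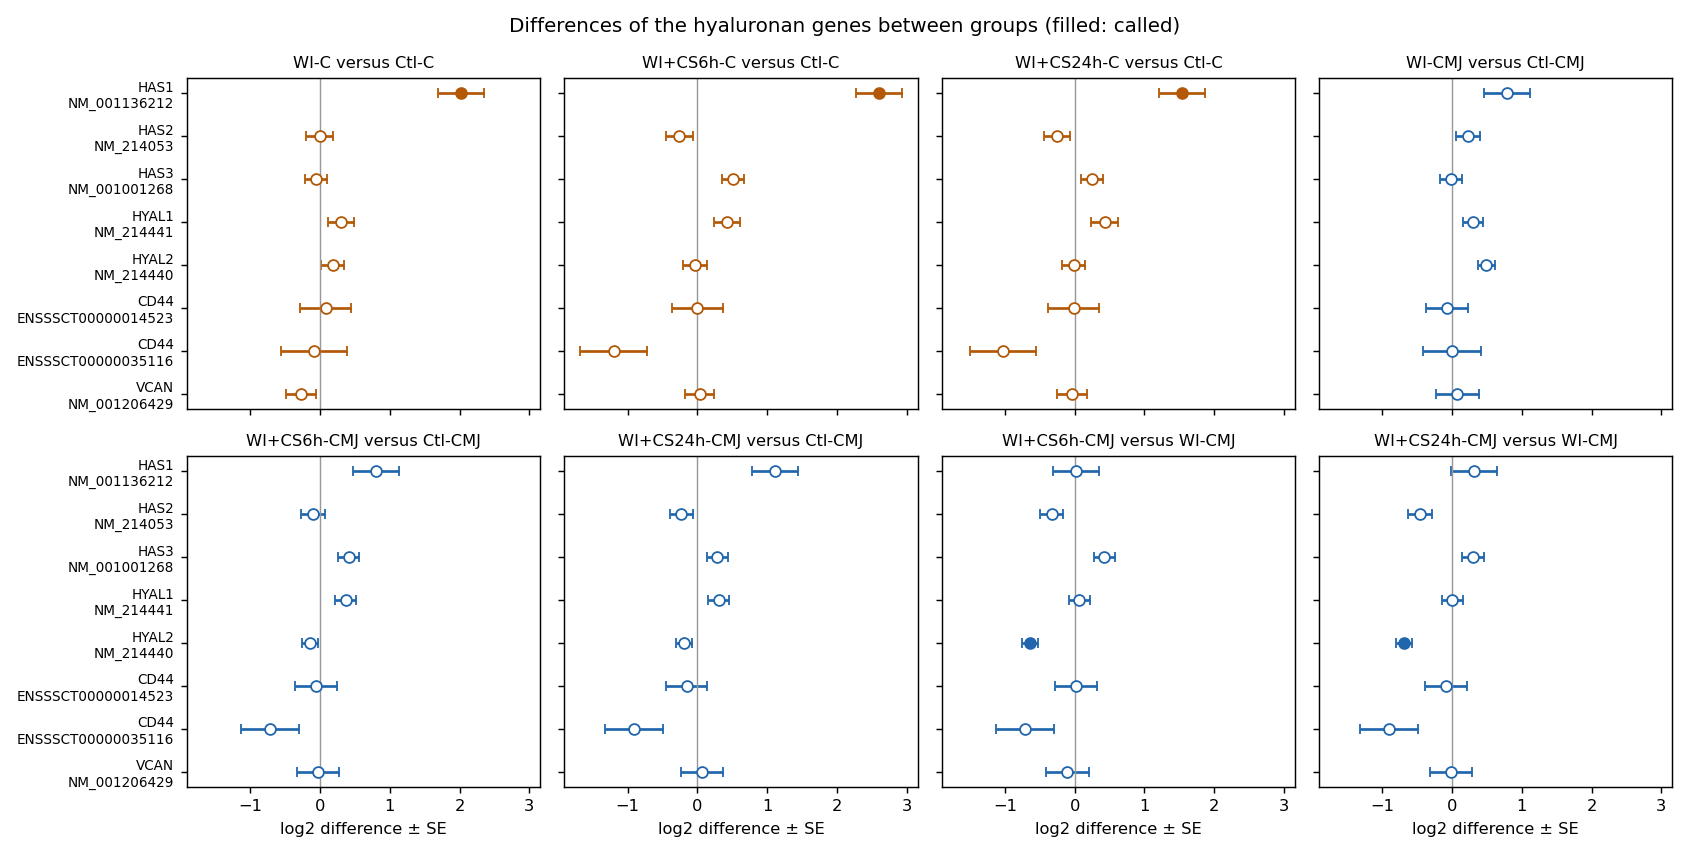
Log2 differences ± SE of 8 identifiers in 8 comparisons (cortex in brown, CMJ in blue, TNFAIP6 left out as it was at background). Filled points are called. HAS1 is filled in the 3 cortex comparisons with control, HYAL2 is filled in the 2 comparisons of cold-stored CMJ with WI-CMJ, and all other points are open.

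Around these genes, 35 identifiers of 6 lists were read: enzymes that make the sugar precursors (7), other hyaluronan-degrading enzymes (7), other receptors (4), other hyaluronan-binding matrix proteins (9), CD44 partners (5) and versican-cleaving proteases (3). By limma none of the 35 was called in WI-C versus Ctl-C, where 1 had an unadjusted p under 0.05, as did 4.89% of all identifiers. None was called in the 3 comparisons of CMJ with control, with 6, 4 and 5 at an unadjusted p under 0.05, or in the 2 of cold-stored CMJ with WI-CMJ, with 7 and 6, beside 16.9% and 16.4% of all identifiers there and the shares given above against control.

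In cold-stored cortex 2 of the 35 were called against control at each time, both higher, and each of these calls was lost in at least 1 alternative. TLR4, a receptor of the innate immune system that is among the reported sensors of hyaluronan fragments, had a level of 4.84 ± 0.22 (SD, n = 5) in Ctl-C, 5.67 ± 0.33 at 6 h and 5.71 ± 0.39 at 24 h, differences of 0.83 and 0.87. ADAMTS1, a protease that cleaves versican, differed by 0.52 at both times from a control level of 8.21 ± 0.08. TLR4 lost its calls with normexp at both times and with slide as a block at 24 h, and ADAMTS1 with normexp, the authors' matrix, slide as a block and a fit of 2 groups at both times. At 24 h ADAMTS1 also lost its call with scaling to the 75th percentile, quantile normalization by group and scan day as a block. Against WI-C, 1 of the 35 was called at each time, ACAN, the proteoglycan aggrecan, at 0.76 and 0.80 above a WI-C level of 3.01 ± 0.27. Its calls at both times were lost with 1 probe per identifier and in the 4 settings that ADAMTS1 lost at both times, and that at 6 h also with scaling to the 75th percentile and with scan day as a block. These shares, 5.71% and 2.86%, stand beside 4.02% and 2.5% of all identifiers against control and 1.93% and 1.2% against WI-C. In CMJ the differences of TLR4 from control were 0.37, 0.50 and 0.60 and none was called, although that at 24 h was called in 3 alternatives.

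HAS1 was well above background on 15 of the 40 arrays, of which 8 are the cold-stored cortex arrays that the choice of genes used, so its likeness to other genes rests largely on values near the floor. The genes with the pattern most like it over the 40 arrays, among 7643 identifiers with a symbol and well above background on at least 10 arrays, were PPME1 (r = 0.703), FMR1 (0.682), EIF1 (0.669), PYY (0.663) and NR4A3 (0.657). Those most like HYAL2 were FMOD (r = 0.872), OSBPL5 (0.861), LPCAT4 (0.836), IRF3 (0.819) and DLK1 (0.808), and within groups, after subtraction of the group means, these were at r = 0.71 to 0.787, against 0.134 to 0.506 for the genes most like HAS1. The arrays share kidneys and normalization, and the values are given as descriptions only.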

How the data were processed

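Groups were taken from the sample labels. The authors deposited 1 Feature Extraction 11.5.1.1 file per array, and its processed intensity is background-subtracted and not normalized between arrays. The authors also deposited a matrix of log2 values, used here as an alternative. For 32153 identifiers with 1 spot, 99.97% of its values equalled, within 1e-06, the quantile normalized log2 median pixel intensity without background subtraction. No build is given in the sources used here.

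Processed intensities of 43803 non-control spots were taken to log2, outlier spots left out, the 40 arrays quantile normalized together and spots of one identifier averaged. In R 4.3.3 with limma 3.58.1, the 20 arrays of a tissue were fitted with 1 term per group, and tissues were compared in a fit of all 40, with Benjamini-Hochberg adjustment over all identifiers. Scripts were tested on simulated data. The number of arrays limits the precision. The members and lists were chosen with earlier results of these data known. Named were all 8 genes, list genes called (at most 3 per list for those called only in cold-stored cortex), and the 5 most like HAS1 and HYAL2. Mesothelial genes have no row here by symbol.

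Replicate numbers paired cold-stored CMJ across times (correlations of deviations 0.651 to 0.89), and cortex with CMJ after WI (0.13 to 0.546), at 6 h (0.145 to 0.759) and at 24 h (0.231 to 0.73). Cold-stored cortex across times (-0.421 to 0.696) and Ctl (-0.275 to 0.237) did not meet 0.1 in every pair. Alternatives were another scaling, group-wise quantiles, normexp (offset 50), the deposited matrix, a filter on dim identifiers, 1 probe per identifier, blocks for replicate, kidney and slide, a fit of 2 groups, each array left out and, added after seeing the data, scan day and the WI-CMJ arrays with ADIPOQ. Figures were drawn with matplotlib 3.10.9.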

Additional observations from a re-analysis of the deposited data

Results flagged for a closer look

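In WI+CS6h-C, VCAN on replicate 3 (2.77) stood far below the other 4 arrays (3.85 to 4.03), with a gap of 0.86 of the group's range. The spot was not well above background on that array, and the row described as similar to versican was lowest on the same array (3.04). Of 61 sets of 5 arrays tested 1 stood out in this way, and chance gives about 1 in 20.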

How the results depend on the processing

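HAS1 was dim, and its calls depended on how background was handled. The 1 call in WI-C versus Ctl-C became 0 with normexp, the deposited matrix, the replicate block (2.02, adjusted p = 0.0567), the slide block and a fit of only 2 groups (adjusted p = 0.0804), and stayed 1 in the other 6 alternatives that apply and in all 10 leave-one-out fits (1.84 to 2.21). The numbers of these groups share only a number (Ctl-C and WI-C pairs correlated at -0.421 to 0.284). Against Ctl-C, the 1 call at 6 h became 0 with normexp and the deposited matrix, and that at 24 h became 0 with both and with the slide block, with HAS1 reversed to -0.0387 under normexp. WI+CS6h-CMJ against WI+CS6h-C went from 1 to 0 with normexp, the deposited matrix and the slide block.

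HYAL2 calls in cold-stored CMJ against WI-CMJ went from 1 to 0 with normexp at both times and with the slide block at 6 h, and held in all leave-one-out fits (-0.72 to -0.57 and -0.77 to -0.62). With quantile normalization by group, which shifted the median of all identifiers by up to 0.15 (0.1478 in WI+CS24h-CMJ versus WI-CMJ and 0.1468 in WI+CS6h-C versus WI-C), 1 more member was called in each of WI+CS6h-C versus WI-C (1 in all, HAS3), WI+CS6h-CMJ versus WI-CMJ (2 in all, HAS3 at 0.55, adjusted p = 0.0355) and WI+CS24h-CMJ versus Ctl-CMJ (1 in all, HAS1 at 1.14, adjusted p = 0.0307). The replicate block called HAS1 in the last (1 in all, 1.11, adjusted p = 0.0476) and in WI-CMJ versus WI-C (1 in all, with 1 of 5 WI-CMJ arrays above background), as did the filter on dim identifiers (1, adjusted p = 0.0384). The replicate block changed no other call of a member.

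Leaving out 1 array gave 1 to 2 calls in WI+CS6h-C versus Ctl-C, 0 to 1 in WI+CS6h-C versus WI-C, WI-CMJ versus Ctl-CMJ and WI+CS6h-CMJ versus Ctl-CMJ, 0 to 2 in WI-CMJ versus WI-C (HAS1 without WI-C replicate 3 or WI-CMJ replicate 5, and HYAL2 without the former) and 0 to 1 in WI+CS6h-CMJ versus WI+CS6h-C (0 without WI+CS6h-C replicate 3 or WI+CS6h-CMJ replicate 1, 3 or 4). The scan day block and the fits without the 3 WI-CMJ arrays with ADIPOQ (EF601160) signal, both chosen after seeing the data, changed no call of a member. Of the 35 list identifiers, the 2 called in cold-stored cortex versus Ctl-C became 0 to 3 at 6 h and 0 to 2 at 24 h, and the 1 called versus WI-C became 0 to 3 and 0 to 1. In CMJ 1 was called in 4 of 11 alternatives in WI+CS24h-CMJ versus Ctl-CMJ (TLR4 in 3, ITIH1 with the replicate block) and in 3 of 12 in WI+CS24h-CMJ versus WI-CMJ (MSN, ITIH1 and CD74, 1 each), and none in the other CMJ comparisons. Counts over all identifiers moved more: the 34 calls in WI-C versus Ctl-C became 5 to 107, and the 1000 and 1024 in cold-stored CMJ versus WI-CMJ became 65 to 1605 and 165 to 1695, with 280 and 295 without the 3 WI-CMJ arrays. Signal over background limits HAS1 and TNFAIP6. Except where a value above shows it, the cause was not tested.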
